A study of Homo sapiens with 18 samples.

Results

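Integrin and laminin subunits were followed as a gene family in MDA-MB-231, a human breast cancer cell line of the triple-negative type, grown as an established line. The family was chosen with earlier results of these data known, and its members were set by gene name, without a cut on a measured value. It took in every protein-coding gene named as an integrin alpha subunit (ITGA), an integrin beta subunit (ITGB1 to ITGB8) or a laminin chain (LAMA, LAMB or LAMC). This gave 38 of the 62703 genes in the files. Of these, 26 encode integrin subunits (18 alpha and 8 beta) and 12 encode laminin chains (5 alpha, 4 beta and 3 gamma). Polyadenylated RNA had been sequenced in 10 distinct libraries, 2 in each of 5 groups, since 8 of the 18 sample records repeat another record value for value. In the knockdown experiment, cells carried a short hairpin RNA with no named target (control shRNA), one that silences EZH2 (shEZH2) or one that silences E2F1 (shE2F1). These cells were exposed to lentivirus for 24 h and kept under puromycin at 2 μg/ml for 72 h, and each target was silenced with 1 hairpin sequence. In the drug experiment, cells that received neither virus nor puromycin were treated for 72 h with 1 μM GSK126 or with its vehicle DMSO. The labels do not say whether replicates were separate cultures, so the p-values measure the spread between these libraries, which may be technical.

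Integrins are cell surface receptors made of an alpha and a beta subunit, which together decide the ligand. ITGB1 pairs with many alpha subunits, whereas ITGB4 pairs with ITGA6 alone, in the receptor of hemidesmosomes, the plaques that tie epithelial cells to the basement membrane. Laminins are secreted trimers of an alpha, a beta and a gamma chain, the main adhesive proteins of that membrane, and LAMA3 and LAMB3 belong to the laminin of hemidesmosomes. EZH2 is the subunit of Polycomb repressive complex PRC2 that methylates histone H3 at lysine 27, GSK126 inhibits that activity, and E2F1 activates genes for entry into S phase.

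The libraries held 13198932 to 20055550 counts. By counting error alone, a gene with no count could lie as high as 0.15 to 0.227 CPM (counts scaled to the size of the library), depending on the library. EZH2 was present at 90.8 and 102 TPM (a level scaled to transcript length and library) in control cells and at 31.9 and 26.5 TPM in shEZH2 cells. In shE2F1 cells EZH2 was at 77.1 and 90.8 TPM, with a log2 change of -0.37 ± 0.12 (edgeR, adjusted p = 0.0227). E2F1 was present at 81.6 and 74.7 TPM in control cells, 16.1 and 14.6 TPM in shE2F1 cells and 40.1 and 20 TPM in shEZH2 cells, so the EZH2 hairpin came with less of both transcripts. The labelled line was checked against its markers. VIM, CD44, EGFR, AXL and CAV1 lay between 72.2 and 2860 TPM in every library. Of 5 genes listed as low markers, PGR was at 0 and ESR1 did not exceed 0.17 TPM. CDH1 reached 4.5 TPM, however, GATA3 lay between 5.86 and 13.8 TPM and EPCAM reached 37.7 TPM. Endothelial, platelet and myoepithelial markers (PECAM1, CDH5, PF4, GP1BA, ACTA2, KRT5 and KRT14) did not exceed 4.32 TPM. The sum of the 5 high markers was 4970 and 4990 TPM in control cells, 2700 and 2420 TPM in shEZH2 cells and 4000 and 4270 TPM in shE2F1 cells. VIM, CAV1 and AXL were called lower in shEZH2 cells (log2 changes -1.33 ± 0.10, -1.27 ± 0.09 and -1.83 ± 0.15) and AXL in shE2F1 cells (-2.23 ± 0.15), and the part of these markers in the changes of the subunits was not tested. In bulk RNA, fewer cells of a kind and less RNA per cell cannot be told apart.

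MDA-MB-231 cells expressed a restricted set of these subunits. Of the 38 genes, 24 had enough counts to be tested in the knockdown libraries and 23 in the drug libraries, where LAMA2 was left out. The other 14 (ITGA2B, ITGA4, ITGA8, ITGA9, ITGA11, ITGAD, ITGAL, ITGAM, ITGAX, ITGB6, ITGB7, LAMA1, LAMB4 and LAMC3) held at most 10 counts in any library. These included the leukocyte alpha subunits ITGAD, ITGAL, ITGAM and ITGAX, and ITGAD had 0 counts in all 10 libraries. By mean TPM over the libraries, ITGA3, a laminin-binding alpha subunit, stood first at 637 TPM (range 262 to 927). ITGB1 followed at 393 TPM (304 to 532) and LAMB3 at 233 TPM (188 to 326). LAMB2, ITGA6, the fibronectin receptor subunit ITGA5 and ITGB4 came next, with means of 180, 179, 175 and 159 TPM and ranges that overlapped throughout. LAMA5, LAMC1 and LAMB1 closed the first 10, with means of 117, 99.6 and 92.0 TPM, and their ranges overlapped too. Every pair of neighbours in this order, ITGA3 and ITGB1 included, overlapped in range.

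**Figure D1:**
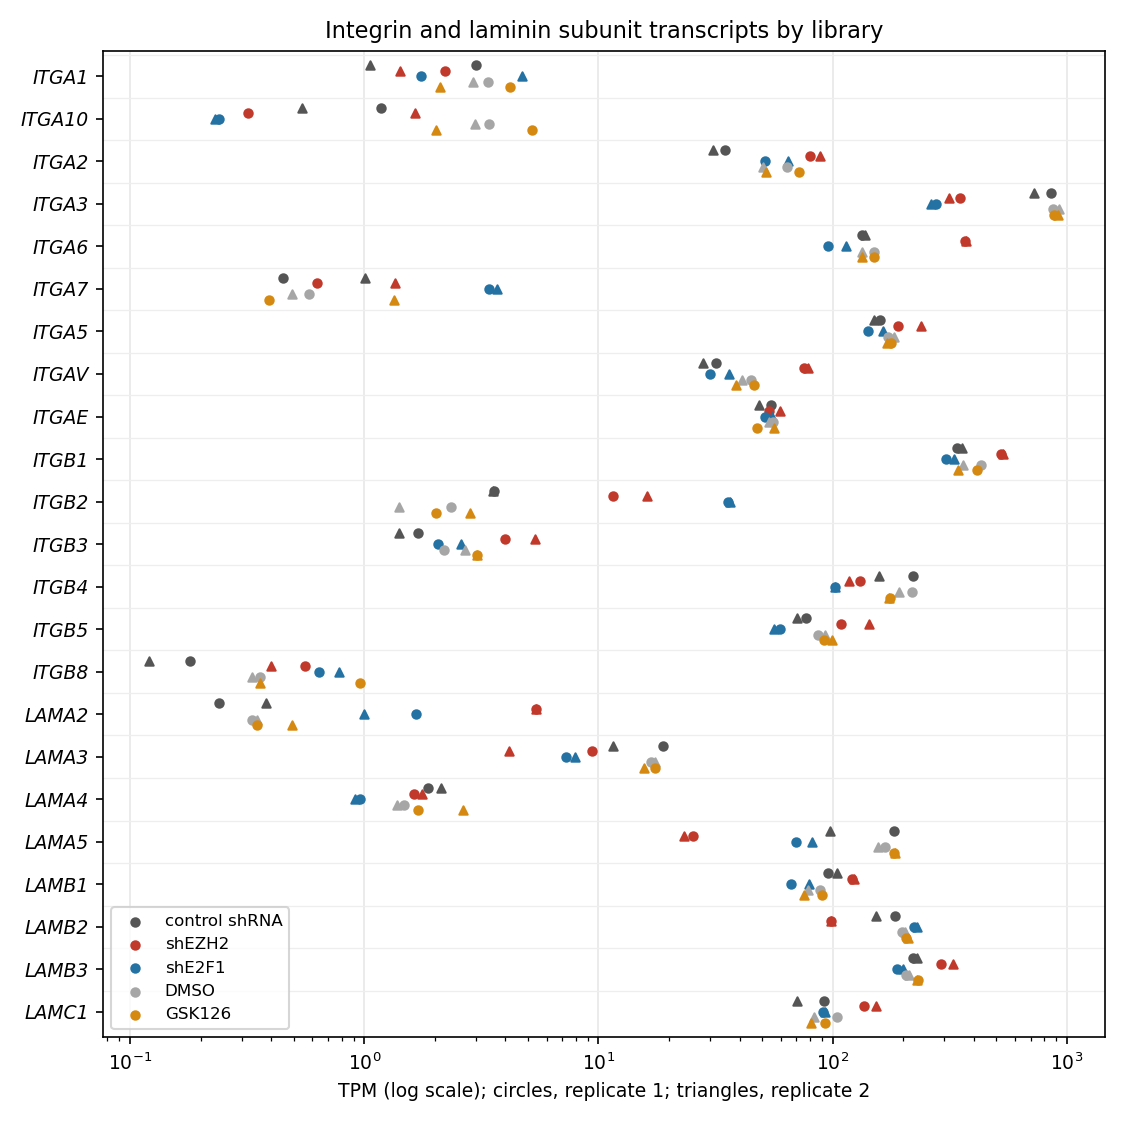
TPM on a log scale of 23 of the 24 tested integrin and laminin subunits, one row per gene, in the 10 libraries (colour, group; circles, replicate 1; triangles, replicate 2). ITGA3 lies at 720 to 927 TPM in control, DMSO and GSK126 cells and at 262 to 350 TPM in both knockdowns, whereas ITGA6 stands apart in shEZH2 cells, at 367 and 371 TPM.

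Depletion of EZH2 changed the subunits in both directions. Calls follow the cut-offs of the study, which are an adjusted p under 0.01 and over 2-fold change, with p-values from edgeR's quasi-likelihood test, adjusted by Benjamini-Hochberg across every tested gene. In shEZH2 cells, 7 of the 24 tested subunits were called higher (ITGA2, ITGA6, ITGAV, ITGB2, ITGB3, ITGB8 and LAMA2), where 7.52% of all genes tested were called higher. Of these 7, ITGB8 and LAMA2 passed the filter on low counts through the knockdown groups alone, where they were high, so 5 of the calls are free of that selection. Another 4 were called lower (ITGA3, LAMA3, LAMA5 and LAMB2), beside 10.7% of all genes. The median log2 change of the 24 was 0.27, against -0.02 for all genes. With no fold limit and an adjusted p under 0.05, 12 were higher and 5 lower, beside 27% and 28.6% of all genes. After an offset for GC content and transcript length, 3 of the 7 higher calls (ITGB2, ITGB3 and LAMA2) and all 4 lower calls were made.

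Depletion of E2F1 changed 8 subunits, in a comparison that uses the same control libraries. In shE2F1 cells ITGA7, ITGB2, ITGB8 and LAMA2 were called higher, 4 of 24 beside 5.6% of all genes, with the same limit for ITGB8 and LAMA2. ITGA3, ITGB4, LAMA3 and LAMA5 were called lower, again 4 of 24, beside 5.96% of all genes. The median log2 change was -0.25, with 0 for all genes. At an adjusted p under 0.05 with no fold limit, 5 were higher and 11 lower, beside 21.1% and 23.7% of all genes. Of the 4 lower calls, 1 (ITGA3) was left without control replicate 1, and 2 (ITGA3 and ITGB4) without shE2F1 replicate 1.

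**Figure D2:**
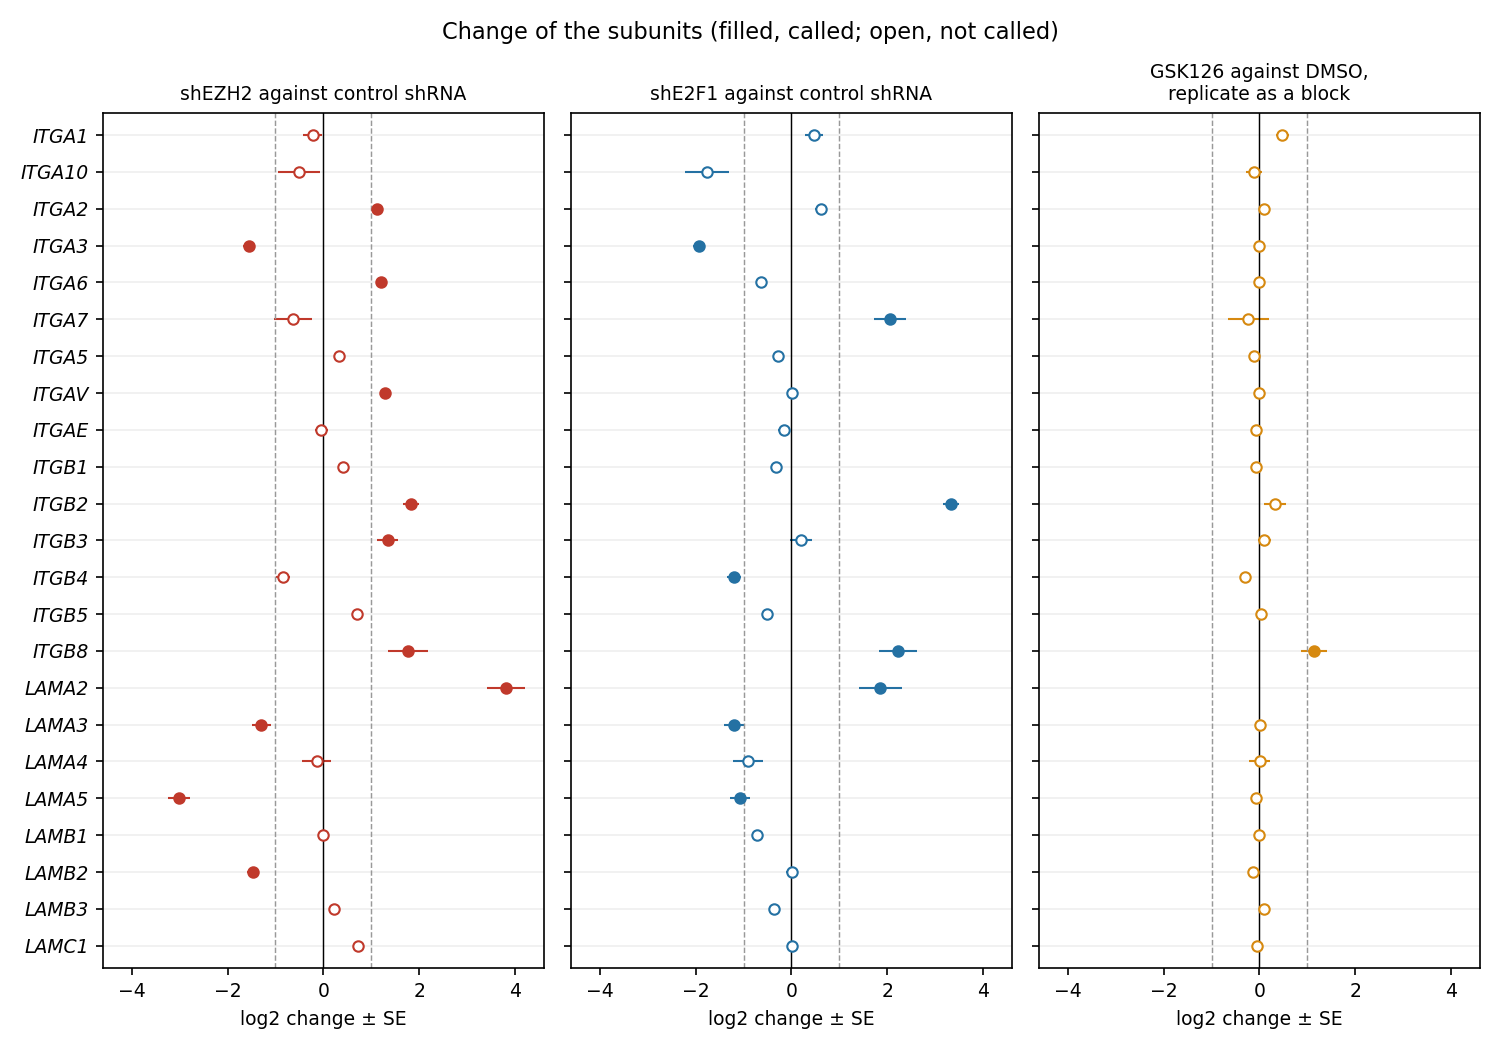
Log2 change with its SE of 23 of the 24 tested subunits, one row per gene, in shEZH2 cells and shE2F1 cells against control shRNA and in GSK126 cells against DMSO with the replicate as a block (filled points, called; dashed lines, 2-fold). ITGA3 and LAMA5 lie left of the lower line in both knockdowns, ITGB2 and LAMA2 right of the upper line, and ITGB8 is the subunit called under GSK126; LAMA2 was not tested there.

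Among the alpha subunits that bind laminin, ITGA3 and ITGA6 moved apart in shEZH2 cells. ITGA3 (chromosome 17, 50055968-50090481, plus strand, hg38) had 2170 and 1870 CPM in control cells, 765 and 625 CPM in shEZH2 cells and 551 and 511 CPM in shE2F1 cells. The knockdown libraries lay far below the control libraries in both cases, with log2 changes of -1.55 ± 0.12 (SE, adjusted p = 4.6e-06) and -1.94 ± 0.12 (adjusted p = 1.71e-06). ITGA6 (chromosome 2, 172427354-172506459, plus strand) had 484 and 541 CPM in control cells, 1170 and 1220 CPM in shEZH2 cells and 306 and 361 CPM in shE2F1 cells. It lay above the control libraries in one knockdown and below them in the other, with changes of 1.21 ± 0.10 (adjusted p = 7.77e-06) and -0.63 ± 0.10 (adjusted p = 0.000688, not past 2-fold). ITGA7, the laminin receptor subunit of muscle, was scarce, at 1.11 and 1.38 CPM in control cells. It rose to 5.17 and 5.28 CPM in shE2F1 cells (log2 change 2.06 ± 0.33, adjusted p = 0.0005), while shEZH2 cells held 0.527 and 1.04 CPM.

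The makeup of the alpha subunits differed accordingly. ITGA3 made up 67.1% and 64.4% of the summed TPM of all integrin alpha subunits in control cells, 31.3% and 27.2% in shEZH2 cells and 42.2% and 37.1% in shE2F1 cells. ITGA6 made up 10.5% and 12.4% in control cells and 32.8% and 32.2% in shEZH2 cells. The ratio of ITGA3 to ITGA6 in TPM was 6.4 and 5.21 in control cells, 0.955 and 0.845 in shEZH2 cells, and 2.87 and 2.29 in shE2F1 cells. In DMSO and GSK126 cells it lay between 5.81 and 6.92, so the groups with a hairpin against a named gene stood below all others without overlap. With 2 libraries against 2, an exact two-sided permutation test cannot give a p below 0.333, and the ratio was not tested. The sum over all alpha subunits was 1270 and 1120 TPM in control cells, 1120 and 1150 TPM in shEZH2 cells and 651 and 705 TPM in shE2F1 cells.

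ITGA2 and ITGAV, of the collagen- and RGD-binding alpha subunits, rose in shEZH2 cells. ITGA2, which binds collagen, had 182 and 172 CPM in control cells, 366 and 415 CPM in shEZH2 cells and 246 and 295 CPM in shE2F1 cells. Both knockdowns lay above the controls, with log2 changes of 1.13 ± 0.11 (adjusted p = 1.48e-05) and 0.61 ± 0.11 (adjusted p = 0.00111, not past 2-fold). ITGAV, the alpha subunit of the vitronectin receptors, had 130 and 125 CPM in control cells, 302 and 328 CPM in shEZH2 cells and 121 and 138 CPM in shE2F1 cells. Its log2 change was 1.29 ± 0.10 (adjusted p = 3.64e-06) in shEZH2 cells, and the shE2F1 libraries lay around the controls (0.02 ± 0.10, adjusted p = 0.888). After the GC and length offset the values in shEZH2 cells were 0.81 for ITGA2, 0.99 for ITGA6 and 0.86 for ITGAV, each under 2-fold. ITGA5 had 404 and 395 CPM in control cells, 444 and 568 CPM in shEZH2 cells and 322 and 343 CPM in shE2F1 cells, and was called in neither (0.33 ± 0.11 and -0.27 ± 0.11). Of the remaining alpha subunits tested, ITGA10, which binds collagen, came close to a call in shE2F1 cells, with 42 and 23 counts in control cells, 12 and 9 counts in shE2F1 cells and a log2 change of -1.76 ± 0.46 (adjusted p = 0.0101). ITGAE, the E-cadherin receptor subunit, stayed between 15.3 and 20.6 CPM in all libraries.

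Among the beta subunits, ITGB2 showed the largest relative change. ITGB2 (chromosome 21, 44885953-44931989, minus strand), the beta subunit of leukocyte integrins, had 5.29 and 5.46 CPM in control cells, 15.9 and 22.4 CPM in shEZH2 cells and 53.5 and 55.0 CPM in shE2F1 cells. The 3 groups did not overlap, and the log2 changes were 1.83 ± 0.17 (adjusted p = 1.36e-05) and 3.33 ± 0.17 (adjusted p = 9.6e-07). Its leukocyte partners ITGAL, ITGAM, ITGAX and ITGAD held at most 7 counts in any library. Of 3 leukocyte markers, CD3E was at 0 in every library and PTPRC lay between 0.05 and 0.46 TPM, whereas CD68, a lysosomal protein, moved. The summed TPM of the 3 was 80.6 and 78.9 in control cells, 38.1 and 30.8 in shEZH2 cells and 146 and 158 in shE2F1 cells, and its part in the ITGB2 result was not tested.

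ITGB1, the most widely shared beta subunit, had 844 and 930 CPM in control cells, 1150 and 1220 CPM in shEZH2 cells and 694 and 727 CPM in shE2F1 cells. Its log2 changes, 0.41 ± 0.09 (adjusted p = 0.003) and -0.33 ± 0.09 (adjusted p = 0.0128), were under 2-fold and of opposite sign. ITGB4 (chromosome 17, 75721328-75757818, plus strand) had 486 and 347 CPM in control cells, 243 and 225 CPM in shEZH2 cells and 176 and 189 CPM in shE2F1 cells. Both knockdowns lay below the controls, and only the change in shE2F1 cells was called (-1.20 ± 0.14, adjusted p = 6.72e-05, or -0.94 without control replicate 1); in shEZH2 cells it was -0.84 ± 0.14 (adjusted p = 0.000452). In shEZH2 cells ITGA6 was higher and ITGB4, its partner in the hemidesmosome receptor, was lower. The ratio of ITGA6 to ITGB4 in TPM was 0.604 and 0.879 in control cells and 2.8 and 3.19 in shEZH2 cells. The same ratio was 0.934 and 1.12 in shE2F1 cells.

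The partners of ITGAV included ITGB3, ITGB5 and ITGB8. ITGB3 had 6.78 and 5.94 CPM in control cells, 12.5 and 19.8 CPM in shEZH2 cells and 7.14 and 7.49 CPM in shE2F1 cells. It rose in shEZH2 cells with a log2 change of 1.34 ± 0.22 (adjusted p = 0.000455), which was 0.98 without shEZH2 replicate 2. ITGB5 had 124 and 106 CPM in control cells, 180 and 197 CPM in shEZH2 cells and 79.1 and 83.0 CPM in shE2F1 cells. Its changes, 0.70 ± 0.10 (adjusted p = 0.000204) and -0.52 ± 0.10 (adjusted p = 0.0021), were again of opposite sign and under 2-fold. ITGB8 was scarce, at 18 and 7 counts in control cells, 36 and 37 in shEZH2 cells and 66 and 64 in shE2F1 cells. It entered the test through the knockdown libraries, and was called higher in both (log2 change 1.76 ± 0.42, adjusted p = 0.00423, and 2.22 ± 0.40, adjusted p = 0.00112). The first was 1.32 without control replicate 2 and 1.59 without shEZH2 replicate 1, and called in neither. Nor was it called with only the 4 libraries compared (edgeR, adjusted p = 0.0106) or with all 10 (0.0105). The same held with the offset from effective length (1.46, adjusted p = 0.0152) and from GC content and length (1.39, adjusted p = 0.014). The second was 2.16 without shE2F1 replicate 2, and not called.

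Of the 4 laminin alpha chains tested, LAMA5 and LAMA3 fell and LAMA2 rose. LAMA5 (chromosome 20, 62307955-62367312, minus strand), the widespread alpha chain of adult epithelia, had 535 and 301 CPM in control cells, 57.1 and 47.1 CPM in shEZH2 cells and 192 and 206 CPM in shE2F1 cells. The control libraries differed more from each other than those of any other group, and still lay above all knockdown libraries. Its log2 change was -3.02 ± 0.23 (adjusted p = 3.98e-06) in shEZH2 cells, the largest fall of any subunit, and -1.08 ± 0.21 (adjusted p = 0.00184) in shE2F1 cells. The second value was -0.61 without control replicate 1 and -0.97 after the GC and length offset, and its adjusted p was 0.0246 and 0.0167 without shE2F1 replicate 1 or 2, so that it was called in none of these. LAMA3 (chromosome 18, 23689453-23956222, plus strand) had 64.2 and 48.1 CPM in control cells, 28.5 and 18.0 CPM in shEZH2 cells and 22.7 and 26.5 CPM in shE2F1 cells. Both knockdowns lay below the controls, with changes of -1.30 ± 0.20 (adjusted p = 0.00034) and -1.20 ± 0.20 (adjusted p = 0.000701), which were -0.97 without shEZH2 replicate 2 and -0.98 without control replicate 1, while the adjusted p of the second was 0.0144 without shE2F1 replicate 1.

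LAMA2, the alpha chain of muscle laminin, went the other way. LAMA2 (chromosome 6, 128883138-129516566, plus strand) had 6 and 8 counts in control cells, 71 and 104 counts in shEZH2 cells and 38 and 20 counts in shE2F1 cells. It passed the filter on low counts through the knockdown groups, in which it was high. The log2 changes were 3.81 ± 0.40 (adjusted p = 2.54e-05) and 1.86 ± 0.44 (adjusted p = 0.00611), and the second was 1.58 (adjusted p = 0.0434) without control replicate 1, 2.17 (0.0148) without control replicate 2 and 1.42 (0.0664) without shE2F1 replicate 1. LAMA4 had 3.34 and 4.08 CPM in control cells, 2.86 and 3.86 CPM in shEZH2 cells and 1.49 and 2.48 CPM in shE2F1 cells, and was called in neither.

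Of the beta and gamma chains, LAMB2 was the one called. LAMB2 (chromosome 3, 49121114-49133118, minus strand), a beta chain of muscle, kidney and vessel laminins, had 240 and 188 CPM in control cells, 84.8 and 71.3 CPM in shEZH2 cells and 207 and 227 CPM in shE2F1 cells. It fell in shEZH2 cells by a log2 change of -1.47 ± 0.13 (adjusted p = 1.02e-05), while shE2F1 cells lay within the control range (0.01 ± 0.13). LAMB1 was at 243 and 245 CPM in control cells, 236 and 254 CPM in shEZH2 cells and 141 and 159 CPM in shE2F1 cells (log2 changes -0.01 ± 0.09 and -0.71 ± 0.09, adjusted p = 0.954 and 0.000138). LAMB3 had 533 and 589 CPM in control cells, 623 and 694 CPM in shEZH2 cells and 420 and 451 CPM in shE2F1 cells, with changes of 0.22 ± 0.10 and -0.37 ± 0.10. LAMC1, the common gamma chain, had 360 and 330 CPM in control cells, 532 and 612 CPM in shEZH2 cells and 340 and 357 CPM in shE2F1 cells. Its change in shEZH2 cells was 0.72 ± 0.10 (adjusted p = 0.000125), under 2-fold.

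Because every laminin holds 1 alpha and 1 beta chain, these chains were also summed. Laminin alpha chains came to 203 and 112 TPM in control cells, 41.8 and 34.6 TPM in shEZH2 cells and 79.8 and 91.0 TPM in shE2F1 cells. Both knockdowns lay below the controls, and shEZH2 cells lowest. The TPM sum of the beta chains stayed between 477 and 548 in all 10 libraries. LAMB2 gave 36.7% and 31.4% of it in control cells and 19.3% and 18.0% in shEZH2 cells. The LAMB2 TPM rests on estimated lengths of 2040 and 1840 bases in control cells and 1570 and 1300 bases in shEZH2 cells. In CPM the chains were less steady. LAMB1 (141 and 159) and LAMB3 (420 and 451) were lower in shE2F1 cells than in control cells (243 and 245, 533 and 589). LAMB2 lay within the control range there. LAMA5 gave 89.7% and 87.4% of the alpha chain sum in control cells and 60.4% and 66.9% in shEZH2 cells, where LAMA2 gave 13% and 15.7%. The LAMA2 TPM rests on estimated lengths of 1760 and 1900 bases there, of 9960 in its longest transcript. Its share is therefore larger in TPM than in CPM. In CPM, shEZH2 cells held 5.35 and 5.99 of LAMA2, 57.1 and 47.1 of LAMA5 and 28.5 and 18.0 of LAMA3. No test was run on these sums.

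**Figure D3:**
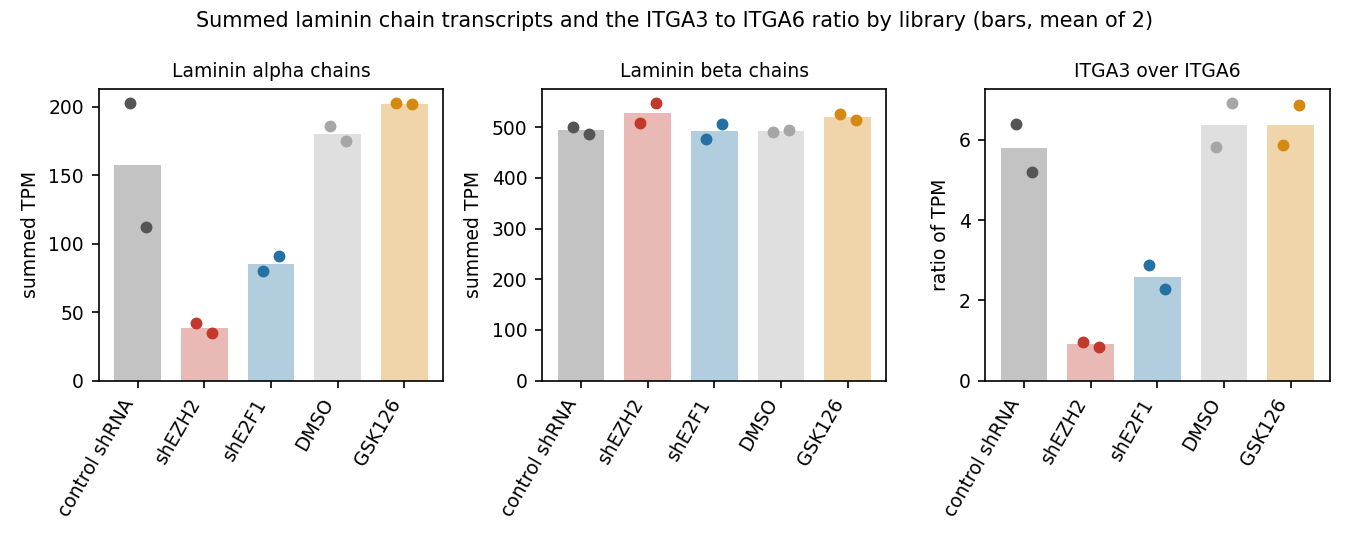
Summed TPM of the laminin alpha and beta chains and the ratio of ITGA3 to ITGA6 in TPM (points, the 2 libraries of each group; bars, their mean; axes start at 0). The alpha sum is 41.8 and 34.6 TPM in shEZH2 cells against 112 to 203 TPM in control, DMSO and GSK126 cells. The beta sum stays between 477 and 548 TPM in all libraries. TPM depends on the estimated transcript lengths, and in CPM LAMB1 and LAMB3 are lower in shE2F1 cells than in control cells.

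The knockdowns were compared with each other directly. Relative to shE2F1 cells, shEZH2 cells had higher levels of ITGA6, ITGAV, ITGB3, ITGB5 and LAMA2, 5 of 24 beside 10.4% of all genes, and lower levels of ITGA7, ITGB2, LAMA5 and LAMB2, 4 of 24 beside 12.9% of all genes. At an adjusted p under 0.05, 15 were higher and 5 lower (29.7% and 30.6% of all genes). The difference in log2 change was 1.84 ± 0.11 for ITGA6 (adjusted p = 3.87e-07), 1.27 ± 0.10 for ITGAV (adjusted p = 1.73e-06) and 1.21 ± 0.10 for ITGB5 (adjusted p = 3.6e-06). It was -2.69 ± 0.35 for ITGA7 (adjusted p = 7.4e-05), -1.94 ± 0.22 for LAMA5 (adjusted p = 2.83e-05), -1.50 ± 0.15 for ITGB2 (adjusted p = 1.03e-05) and -1.48 ± 0.13 for LAMB2 (adjusted p = 5.31e-06). With an offset from effective length the ITGA7 difference was -1.77 (adjusted p = 0.012) and not called, and with the GC and length offset the ITGAV difference was 0.84, under 2-fold. ITGB3 (1.15 ± 0.22) was 0.78 (adjusted p = 0.0107) without shEZH2 replicate 2 and 1.11 (0.0135) without shE2F1 replicate 1. The falls of ITGA3 and LAMA3 differed less, by 0.38 ± 0.12 (adjusted p = 0.0166) and -0.09 ± 0.21 (adjusted p = 0.719).

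GC content was set beside the changes of the subunits, first in shEZH2 cells. Of the 6 tested subunits with the least GC in their longest transcript (33.5% to 42.5%), ITGAV, ITGB1, ITGA2, ITGA6 and ITGB8 were higher at an adjusted p under 0.05 and ITGA1 was at -0.22 ± 0.20. Of the 6 with the most (60% to 66.4%), ITGA3, LAMA5, LAMB2 and ITGB4 were lower, ITGB2 was higher and ITGA7 was at -0.63 ± 0.40. Across the 24 tested subunits the Pearson correlation of log2 change with GC content was -0.56 (Spearman -0.59), against -0.24 over 15366 genes, where all points come from the same libraries and genes are not independent. For the subunits in shE2F1 cells it was -0.17 (Spearman -0.35), against -0.02 over all genes, and under GSK126 it was -0.44 (Spearman -0.51), against 0.02 over all genes. LAMA3, in the middle at 50.7% GC, fell. The 4 lower calls in shEZH2 cells after the GC and length offset had log2 changes of -2.74 (LAMA5), -1.50 (LAMA3), -1.23 (ITGA3) and -1.18 (LAMB2). After the offset the Pearson correlation across the subunits was still -0.4 in shEZH2 cells, -0.15 in shE2F1 cells and -0.45 under GSK126. The part of GC content in the remaining changes was not tested.

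**Figure D4:**
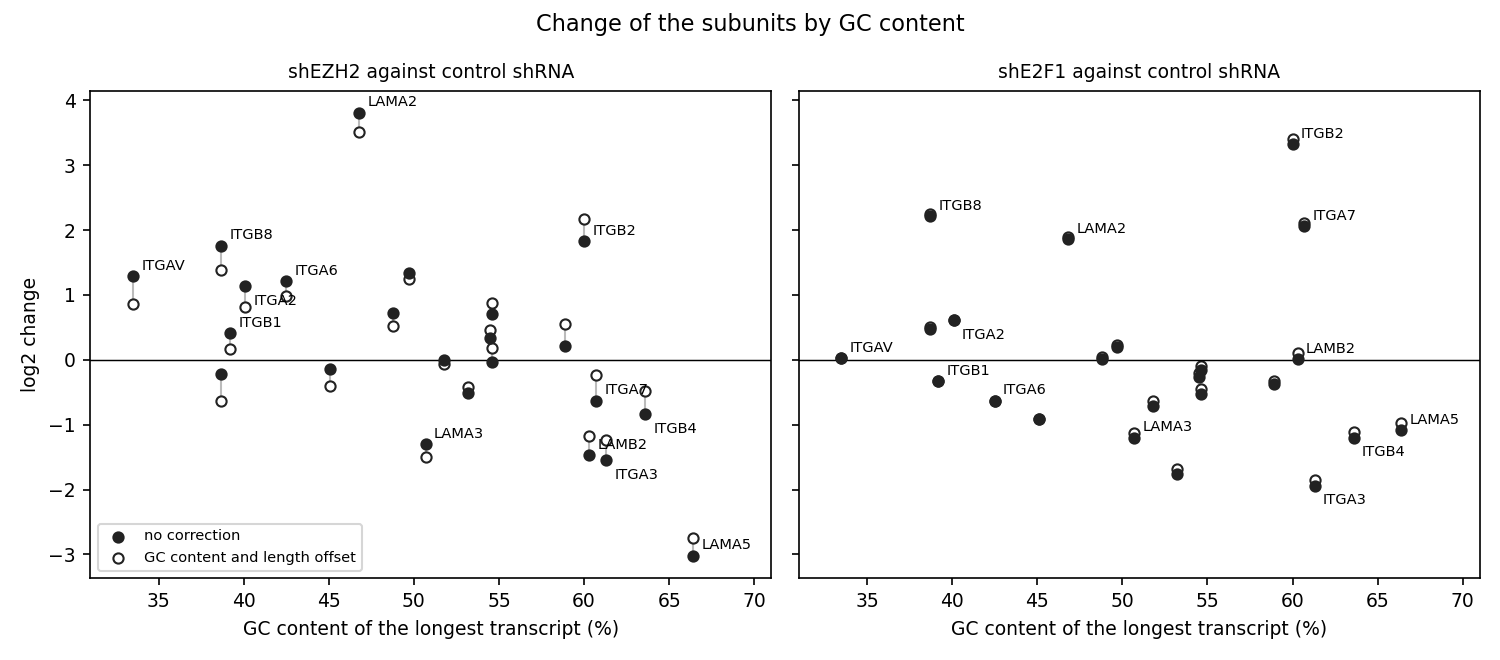
Log2 change of 23 of the 24 tested subunits against the GC content of their longest transcript in shEZH2 cells and shE2F1 cells, before (filled) and after (open) an offset for GC content and length. In shEZH2 cells ITGAV at 33.5% GC moves from 1.29 to 0.86 and LAMA5 at 66.4% GC from -3.02 to -2.74, while points in shE2F1 cells hardly shift.

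Inhibition of EZH2 by GSK126 came with small differences in most subunits. With edgeR, 0 of 23 subunits were called higher and 0 lower (0% of the 14632 genes tested in each direction), 3 had an unadjusted p under 0.05, where 577 genes did, and DESeq2 also called 0 subunits and 11 genes. In this experiment replicates 1 and 2 differed alike in both groups, though no label pairs them. Values with the replicate as a block are therefore given beside these. ITGB8 was then called higher, 1 of 23 beside 0.362% of all genes, and 0 were called lower, beside 0.103%. ITGB8 had 42 and 21 counts in DMSO cells and 88 and 38 counts in GSK126 cells (log2 change 1.15 ± 0.48, adjusted p = 1.0, without the block, and 1.14 ± 0.27, adjusted p = 0.00321, with it). Within replicate 1 its CPM differed by 1.12 on the log2 scale and within replicate 2 by 0.70, both upwards. At an adjusted p under 0.05 with the block, 4 subunits were higher and 4 lower, beside 6.3% and 7.3% of all genes, and 7 of these 8 changed by less than 0.5 on the log2 scale.

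ITGB4 had the lowest adjusted p among these small changes. It was at 489 and 451 CPM in DMSO cells and 400 and 366 CPM in GSK126 cells (-0.30 ± 0.03 with the block, adjusted p = 8.53e-10), with no overlap between the groups. The p-values with the block come from a fit with 1 residual degree of freedom. The labels do not say that replicates pair, and the pairing was taken from the data. Without the block no subunit was called. ITGA1, a collagen-binding subunit whose reads are shared with the overlapping gene PELO, had 8.57 and 7.68 CPM in DMSO cells and 12.9 and 9.78 CPM in GSK126 cells (0.48 ± 0.13, adjusted p = 0.0103). LAMB3 was higher and ITGA5, ITGB1 and LAMB2 were lower by 0.13 or less, and in these 4 the drug groups overlapped. Within the pairs of replicates, LAMB3, ITGB1 and LAMB2 went the same way in both, whereas ITGA5 differed by 0.02 in replicate 1 and by -0.24 in replicate 2 on the log2 scale. LAMB3 had 469 and 571 CPM in DMSO cells and 519 and 583 CPM in GSK126 cells, and ITGB1 had 1020 and 928 CPM in DMSO cells and 976 and 870 CPM in GSK126 cells. ITGA5 had 418 and 495 CPM in DMSO cells and 425 and 420 CPM in GSK126 cells, and LAMB2 had 227 and 262 CPM in DMSO cells and 211 and 237 CPM in GSK126 cells.

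Of the subunits called in the knockdowns, ITGB8 was the one called under the drug, with the block only. ITGA3 had 2140 and 2470 CPM in DMSO cells and 2160 and 2380 CPM in GSK126 cells. LAMA5 had 501 and 535 CPM in DMSO cells and 466 and 515 CPM in GSK126 cells, and LAMA3 had 75.9 and 73.0 CPM in DMSO cells and 79.6 and 72.0 CPM in GSK126 cells. In each of these the groups overlapped. Within the pairs, LAMA5 was lower in both (log2 differences of -0.10 and -0.05), while ITGA3 and LAMA3 differed in sign between the pairs. Among subunits higher in shEZH2 cells, ITGA6 had 534 and 492 CPM in DMSO cells and 526 and 497 CPM in GSK126 cells, ITGA2 had 320 and 269 CPM in DMSO cells and 354 and 276 CPM in GSK126 cells, and ITGAV had 185 and 168 CPM in DMSO cells and 190 and 159 CPM in GSK126 cells. These overlapped as well, although ITGA2 was higher within both pairs (by 0.14 and 0.04). ITGB2, with 3.21 and 2.48 CPM in DMSO cells and 3.69 and 3.42 CPM in GSK126 cells, did not overlap, and its log2 change was 0.32 ± 0.23 with the block (adjusted p = 0.433). LAMA2 had 8 and 7 counts in DMSO cells and 7 and 11 counts in GSK126 cells. ITGB3 (8.07 to 10.7 CPM), ITGB5 (145 to 163 CPM), ITGA7 (0.644 to 1.36 CPM), LAMB1 (192 to 197 CPM) and LAMC1 (339 to 360 CPM) spanned these ranges over the 4 drug libraries, and both GSK126 libraries lay below both DMSO libraries for LAMB1 and LAMC1, neither of which passed an adjusted p of 0.05 with the block.

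The shEZH2 change, taken against control shRNA, was tested against the GSK126 change, taken against DMSO, by fitting the 10 libraries at once. Hairpin against drug cannot be told apart there from one experiment against the other. The shEZH2 change exceeded the GSK126 change for ITGA2, ITGA6, ITGAV, ITGB2, ITGB3 and LAMA2, 6 of 24 beside 5.13% of all genes, and was below it for ITGA3, LAMA3, LAMA5 and LAMB2, 4 of 24 beside 8.67%. LAMA5 differed by -2.93 ± 0.29 (adjusted p = 3.93e-05), ITGA3 by -1.51 ± 0.18 (adjusted p = 0.000102) and ITGA6 by 1.23 ± 0.16 (adjusted p = 0.000173). ITGB8, the subunit called under the drug, differed by 0.62 ± 0.66 (adjusted p = 0.496). The count of higher differences was 3 without DMSO replicate 1 and 3 without shEZH2 replicate 2.

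The transcript lengths estimated from the reads placed some counts on short transcripts. The abundance-weighted length of LAMA2 was 1750 to 2080 bases over the libraries, while its longest annotated transcript has 9960 bases. ITGAE had 685 to 705 bases of 3803, so its TPM overstates it against genes counted over their full length. For LAMB2 this length was 2040 and 1840 bases in control cells, 1570 and 1300 bases in shEZH2 cells and 1630 and 1790 bases in shE2F1 cells, of 5692 in its longest transcript. The LAMB2 change in shEZH2 cells was -0.96 with an offset from effective length, under 2-fold. LAMA5 had 4400 and 4370 bases in control cells and 3830 and 3360 bases in shEZH2 cells. ITGB1 and ITGA1 have fractional counts in all 10 libraries, as reads shared with other genes were divided. Of the tested subunits, antisense protein-coding genes overlap ITGA7, ITGAE, ITGB4, LAMA4, LAMA5 and LAMB1, whose reads could include theirs if strand was not used in counting.

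Promoter sequence was set beside the subunits that moved together. RefSeq promoters (GRCh38.p14) matched 26 of the 38 genes, and the 250 bases before the start were searched on both strands. The E2F motifs TTTCCCGC, TTTGGCGC and TTTCGCGC were in 0 of the 26, and in 2.32% of 35116 promoters of the same length. The SP1 core GGGCGG was in 13 (50% against 42.6% of all promoters), the AP-1 motif TGANTCA in 1 (3.85% against 6.57%) and TATAAA in 1 (3.85% against 10.7%). No motif overlapped another in the sequences shown. The promoters of 3 genes lower in shEZH2 cells (LAMA5, LAMB2 and LAMA3) and 3 genes higher (ITGA6, ITGAV and LAMA2) are given 5′ to 3′, with matches in capitals.
LAMA5 (chr20:62367313-62367562, minus strand): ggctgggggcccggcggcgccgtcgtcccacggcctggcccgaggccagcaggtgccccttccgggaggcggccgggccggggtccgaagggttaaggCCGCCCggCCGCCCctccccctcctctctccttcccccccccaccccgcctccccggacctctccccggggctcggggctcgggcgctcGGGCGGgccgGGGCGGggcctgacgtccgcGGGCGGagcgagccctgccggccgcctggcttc
LAMB2 (chr3:49133051-49133300, minus strand): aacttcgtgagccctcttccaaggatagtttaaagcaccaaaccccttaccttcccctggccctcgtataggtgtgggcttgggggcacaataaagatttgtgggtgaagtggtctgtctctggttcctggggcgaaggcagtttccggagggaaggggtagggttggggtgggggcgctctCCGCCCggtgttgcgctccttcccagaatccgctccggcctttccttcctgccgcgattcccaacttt
LAMA3 (chr18:23872770-23873019, plus strand): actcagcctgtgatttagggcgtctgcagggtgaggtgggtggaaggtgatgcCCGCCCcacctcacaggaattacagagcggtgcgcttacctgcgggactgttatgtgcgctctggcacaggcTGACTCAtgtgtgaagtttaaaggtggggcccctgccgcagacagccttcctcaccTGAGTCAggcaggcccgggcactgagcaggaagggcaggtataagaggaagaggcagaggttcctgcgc
ITGA6 (chr2:172427086-172427335, plus strand): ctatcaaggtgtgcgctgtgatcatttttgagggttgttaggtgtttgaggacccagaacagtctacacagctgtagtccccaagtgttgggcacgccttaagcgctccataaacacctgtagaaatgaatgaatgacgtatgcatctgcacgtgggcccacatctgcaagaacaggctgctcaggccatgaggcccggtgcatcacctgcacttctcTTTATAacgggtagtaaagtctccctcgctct
ITGAV (chr2:186589806-186590055, plus strand): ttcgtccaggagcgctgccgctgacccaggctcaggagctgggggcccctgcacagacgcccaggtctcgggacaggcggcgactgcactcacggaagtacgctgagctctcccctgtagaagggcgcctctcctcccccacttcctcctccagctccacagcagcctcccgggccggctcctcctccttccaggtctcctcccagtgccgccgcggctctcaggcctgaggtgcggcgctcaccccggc
LAMA2 (chr6:128882888-128883137, plus strand): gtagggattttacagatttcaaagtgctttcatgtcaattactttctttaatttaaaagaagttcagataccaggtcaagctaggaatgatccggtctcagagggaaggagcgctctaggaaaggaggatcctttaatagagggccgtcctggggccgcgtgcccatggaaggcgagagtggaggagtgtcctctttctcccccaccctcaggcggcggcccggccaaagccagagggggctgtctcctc
LAMA5 has 5 SP1 cores and 82.8% GC, LAMA3 has 2 AP-1 motifs and 1 SP1 core, LAMB2 has 1 SP1 core, and ITGA6 has TATAAA in reverse orientation. ITGAV (70.8% GC) and LAMA2 (53.2% GC) have no match. ITGA2 and ITGB8, also called higher in shEZH2 cells but not shown, have 4 and 2 SP1 cores. The core was therefore not confined to genes that were lower. The LAMA3 window lies 183567 bases from the gene's first annotated start, inside the gene. A match is a description of letters, not a binding site.

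Genes that work with these subunits were counted from fixed lists. The shares of all genes called, given above for each comparison, are repeated beside these counts. Of 6 other laminin receptors, 3 were called lower in shEZH2 cells and 0 higher (10.7% and 7.52% of all genes), among them BCAM (-2.55 ± 0.15), the Lutheran antigen, and DAG1 (-1.89 ± 0.11), which encodes dystroglycan, and the median of the list was -1.11. In shE2F1 cells 1 of the 6 was called lower, BCAM (-1.06 ± 0.13), beside 5.96% of all genes. Of 11 tested basement membrane partners, 3 were called higher and 2 lower in shEZH2 cells (7.52% and 10.7% of all genes), with the heparan sulfate proteoglycans HSPG2 (-3.57 ± 0.25) and AGRN (-1.59 ± 0.15) lower, and COL4A6 (1.79 ± 0.42) and COL4A4 (1.64 ± 0.37), collagen IV chains, higher. COL4A6 had 0.582 and 0.54 CPM in control cells and passed the filter through the knockdown groups. In shE2F1 cells 2 were called higher (5.6% of all genes), the laminin-binding netrin NTN4 (1.53 ± 0.11) and the nidogen NID2. NID2 passed the filter through shE2F1 cells alone, at 1.68 and 2.05 CPM against 0.0529 and 0.12 CPM in control cells, which is too low for a fold. Another 3 were called lower (5.96% of all genes), among them COL7A1 (-1.78 ± 0.19), the anchoring fibril collagen, and COL4A1 (-1.28 ± 0.13).

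Of 14 tested integrin ligands outside the laminins, 6 were called higher and 0 lower in shEZH2 cells (7.52% and 10.7% of all genes), or 5 higher with the replicate block, where FBLN5 was not called (adjusted p = 0.0123). LTBP1 (2.21 ± 0.12), which binds latent TGF-beta, was among them. CDH1, the E-cadherin gene, was called too, but CDH1 and FBLN5 passed the filter through the knockdown groups, where they were high. CDH1 had 2.41 and 2.65 CPM in shEZH2 cells against 0.847 and 0.18 CPM in control cells. FBLN5 had 1.05 and 0.863 CPM in shEZH2 cells against 0.106 and 0.3 CPM in control cells. In shE2F1 cells 3 were called higher and 2 lower (5.6% and 5.96% of all genes), and tenascin C (TNC) fell there (-3.34 ± 0.25) but rose in shEZH2 cells (2.20 ± 0.18), a difference of 5.54 ± 0.24 (adjusted p = 1.25e-07). Of 30 tested adhesion adaptors, 2 were called higher and 4 lower in shEZH2 cells (7.52% and 10.7% of all genes), and 1 higher and 4 lower in shE2F1 cells (5.6% and 5.96%). DAB2, an endocytic adaptor of integrins, had log2 changes of 1.36 ± 0.12 and 1.98 ± 0.12, and TGFB1I1, a paxillin relative, of -2.39 ± 0.17 and -2.27 ± 0.16. Of 7 hemidesmosome and tetraspanin partners, COL17A1, the transmembrane collagen of hemidesmosomes, rose in shEZH2 cells (1.60 ± 0.12, 1 of 7 beside 7.52% of all genes), and PLEC (-1.18 ± 0.14), the linker to keratins, and CD82 (-1.07 ± 0.12) fell in shE2F1 cells (2 of 7 beside 5.96%). Under GSK126, 0 genes of these lists were called without the block. With it, in a fit with 1 residual degree of freedom, the ligand TNC and the adaptor TNS4 were called higher, beside 0.362% of all genes. Their log2 changes were 1.21 ± 0.08 (adjusted p = 1.97e-13) and 1.12 ± 0.26 (adjusted p = 0.00211).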

How the data were processed

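Polyadenylated RNA of 10 distinct libraries was analysed. The authors mapped reads with STAR and estimated abundance with RSEM, with an Ensembl annotation of hg38; the submitters' processing notes name STAR 2.7.2b and RSEM 1.3.1. The deposited files hold expected counts, in which a read mapping to several genes is divided, and TPM, and they also hold abundance-weighted and effective lengths. Whether counting used the strand is not given in the sources used here. GENCODE release 44 gave names and coordinates for 62625 gene identifiers (99.9%).

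Expected counts were rounded and tested in R 4.3.3 with edgeR 4.0.16 (quasi-likelihood test after filterByExpr and TMM scaling). P-values were adjusted by Benjamini-Hochberg over the whole table. Separate fits held the 6 knockdown libraries (15373 genes) and the 4 drug libraries (14632 genes), and all 10 for the difference between hairpin and inhibitor (15773 genes). TPM was described and not tested. A call needed an adjusted p below 0.01 and over 2-fold change. CPM values were scaled by TMM over all 10 libraries.

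Replicates 1 and 2 differed alike in both drug groups (correlation 0.69 across 11908 genes, against 0.0371 to 0.195 between knockdown groups), so the replicate was used as a block beside the drug result. That block left 1 residual degree of freedom.

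The values of 1 tested subunit are not reported here. Every other member was accounted for, and values per library were given for members called in a knockdown comparison or past an adjusted p of 0.05 under GSK126 with the block, and for the 10 highest by TPM; for the companion lists at most 2 called genes per direction were named. Members and lists were chosen with earlier results of these data known. Alternatives were DESeq2 1.42.0, its size factors in edgeR, no filter, a filter on a mean of 50 counts, fits of 4 libraries or of all 10, the replicate block, offsets from effective length and from splines (5 degrees of freedom) of GC content and length, a looser threshold and leaving out each library. GC content and length offsets with the block together were added after seeing the data. On simulated data, 100% of 200 genes changed 4-fold were recovered in each comparison. There were 3 false calls for shEZH2 and 6 for shE2F1 against control shRNA (15373 genes) and 5 for GSK126 against DMSO (14632 genes). The changed genes were drawn only from those with a mean of at least 100 counts. Recovery of 2-fold changes, or of subunits with few counts such as LAMA2, ITGB8 and ITGA7, was not tested.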

Additional observations from a re-analysis of the deposited data

Results flagged for a closer look

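In 2 subunits the hairpins moved the transcript in opposite directions, each past an adjusted p of 0.01, and the difference between the hairpins was tested directly. ITGA6 changed by 1.21 on the log2 scale in shEZH2 cells and by -0.63 in shE2F1 cells, a difference of 1.84 (edgeR, adjusted p = 3.87e-07). ITGB5 changed by 0.70 and -0.52, a difference of 1.21 (edgeR, adjusted p = 3.6e-06). Both comparisons use the same control libraries, and the difference does not. Groups of 2 libraries were too small to look for single outlying libraries.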

How the results depend on the processing

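Of 38 called changes, 16 kept their direction and their call under each alternative that gave a value; over all alternatives 485 of 544 values kept their call, 59 lost it and none turned in direction. With the GC content and length offset the subunits called higher in shEZH2 cells went from 7 to 3, and to 3 with the block added. In the comparison of shEZH2 with shE2F1 cells they went from 5 to 3 with both. At an adjusted p under 0.05 with no fold limit, the counts were 12 higher in shEZH2 cells, 11 lower in shE2F1 cells and 15 higher between the knockdowns. A filter on a mean of 50 counts left 1 subunit called higher in shE2F1 cells, because ITGA7, ITGB8 and LAMA2 were then not tested. With the effective length offset, 2 subunits had a shEZH2 change below the GSK126 change, in place of 4; the cause was not tested.

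With the replicate block, the count called higher under GSK126 went from 0 to 1 (ITGB8), and to 1 also with GC content and length offsets and the block; the block changed no other member call. Leaving out each library in turn gave 1 to 4 subunits called lower in shE2F1 cells, 0 to 1 called higher under GSK126 (1 without GSK126 replicate 2), and 3 to 6 with a shEZH2 change above the GSK126 change. LAMA2 and ITGB8 rest on counts as low as 6 and 7 in a control library, and the 14 untested subunits were below what this depth can compare.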
